A study of Mus musculus with 6 samples.

Results

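Chemokine ligands are small secreted proteins that direct the migration of leukocytes, and 10 of them were followed here in mouse bone marrow-derived macrophages (BMMs) on the way to osteoclasts. The members were named by symbol (Ccl2, Ccl3, Ccl4, Ccl6, Ccl7, Ccl9, Ccl22, Cxcl2, Cxcl16 and Pf4) and are 10 of the 23504 genes in the deposited table. All 10 were found. The libraries came from BMMs of male C57BL/6 mice aged 6 to 8 weeks, which were grown in M-CSF, the survival factor of macrophages. After 3 days, 3 libraries were made from cells given DASA-58, a small-molecule activator of the glycolytic enzyme PKM2, together with RANKL, the cytokine that drives macrophages to become osteoclasts. The other 3 were made from cells given an equal volume of DMSO, the solvent. The results section of the study states that both groups were induced with RANKL, whereas its methods leave this open for the DMSO cells. The design text writes DASA-48 where the sample labels write DASA-58, and no concentration is given for this experiment. Nothing says that the replicates came from separate animals, so the p-values measure the spread between these cultures or libraries.

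The ligands act through G protein-coupled receptors. Ccl2 and Ccl7 recruit monocytes through Ccr2, and Ccl3, Ccl6, Ccl7 and Ccl9 act on Ccr1. Ccl9 is a major chemokine of mouse osteoclasts, and Ccr1 is its receptor on osteoclast precursors. Pf4 (platelet factor 4, also called Cxcl4) is best known from platelet granules and is also made by macrophages. Cxcl16 is made as a transmembrane protein that is shed by the proteases Adam10 and Adam17.

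The upstream sequences of Ccl9, Ccl6 and Pf4 are shown first, because these are the ligands with the firmest differences and because Ccl9 and Ccl6 are neighbours that moved in opposite directions. They are the 250 bases before the RefSeq start on the strand of the gene (GRCm38.p6). They lie at chr11:83578637-83578886 on the minus strand for Ccl9, at chr11:83593088-83593337 on the minus strand for Ccl6, and at chr5:90772185-90772434 on the plus strand for Pf4. Capitals mark matches on either strand to 5 motifs, namely those named for AP-1, NF-κB (its consensus), PU.1, C/EBP and the TATA box.
Ccl9: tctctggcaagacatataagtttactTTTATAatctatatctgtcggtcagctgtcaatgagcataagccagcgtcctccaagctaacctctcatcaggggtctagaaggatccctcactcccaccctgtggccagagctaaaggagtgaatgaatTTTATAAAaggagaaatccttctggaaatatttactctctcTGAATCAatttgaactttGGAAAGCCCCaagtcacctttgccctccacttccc
Ccl6: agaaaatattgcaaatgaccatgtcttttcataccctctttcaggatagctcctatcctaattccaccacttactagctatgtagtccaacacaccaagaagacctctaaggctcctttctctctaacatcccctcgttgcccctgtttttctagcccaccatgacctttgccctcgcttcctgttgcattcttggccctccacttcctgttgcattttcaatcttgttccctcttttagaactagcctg
Pf4: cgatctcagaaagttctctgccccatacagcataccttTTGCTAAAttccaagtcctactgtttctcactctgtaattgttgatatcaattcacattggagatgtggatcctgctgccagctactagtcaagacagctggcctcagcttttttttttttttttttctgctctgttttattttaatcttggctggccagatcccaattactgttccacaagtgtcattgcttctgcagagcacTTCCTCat

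The Ccl9 sequence held 1 AP-1 match (TGANTCA), 53 to 47 bases before the start, 1 NF-κB match, 35 to 26 bases before it, and 3 matches to the TATA motif (TATAAA), of which 2 overlap. The Ccl6 sequence held none of the 5. The Pf4 sequence held a C/EBP match (TTGCNNAA) 212 to 205 bases and a PU.1 match (GAGGAA) 8 to 3 bases before the start. Over 32851 RefSeq promoters of the same length, 6.75% held the AP-1 motif, 3.9% the NF-κB consensus, 23.3% the PU.1 motif, 9.56% the C/EBP motif and 12.4% the TATA motif. RefSeq gave a sequence for 6 of the 10 ligands. Of the other 3, Ccl3 held a PU.1 match, Cxcl2 held 2 overlapping NF-κB matches and Ccl22 held none. The matches are a description of the letters and not of bound factors.

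The libraries held 18191560 to 18968556 fragments, and the FPKM values (fragments relative to gene length and to the depth of the library) were compared as log2(FPKM + 1) with limma over the 10965 genes whose mean reached 1 FPKM. P-values were adjusted over all of these genes by the Benjamini-Hochberg method (BH). On this scale the change of genes with low FPKM comes out too small. Of all genes tested, 7.28% were called lower and 4.24% higher with DASA-58. Of the 10 osteoclast marker genes checked, 9 passed the filter and each of the 9 was called lower, with a summed level of 778 to 833 FPKM in the DMSO libraries and 449 to 467 FPKM in the DASA-58 libraries. Of 10 macrophage markers tested, 4 were higher and 2 lower, with sums of 16732 to 17577 FPKM and 17658 to 19974 FPKM. Most of these sums is Lyz2, with means of 15156 FPKM (DMSO) and 16826 FPKM (DASA-58). Its groups overlapped and it was not called (limma, BH-adjusted p = 0.11). Neutrophil markers were also lower, 4 of the 8 tested, against 1 higher, with sums of 179 to 184 FPKM and 146 to 152 FPKM. The stromal list had sums of 53.9 to 54.8 FPKM and 56.0 to 58.1 FPKM, while the lymphoid list reached at most 3.73 FPKM, the dendritic cell list 6.55 FPKM and the mast cell and basophil list 0.714 FPKM. The part of these shifts in the results on chemokines was not tested. In bulk RNA, fewer cells of a type and less RNA per cell cannot be told apart.

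Among the chemokine ligands, Ccl6 and Pf4 were higher and Ccl9, Ccl2 and Ccl7 were lower with DASA-58, taking a BH-adjusted p below 0.05 as the limit (limma). Of the 8 ligands that passed the filter, 3 were therefore lower, 2 were higher and 3 were not called. Over all genes tested, 11.5% were called, 7.28% lower and 4.24% higher. The groups did not overlap for 6 of the 8 ligands, beside 33.4% of all genes tested. The median log2 fold change of the 8 ligands was 0.04, beside -0.028 over all genes tested, so the family had no common direction. Cxcl2 and Ccl22 were under the filter.

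**Figure D1:**
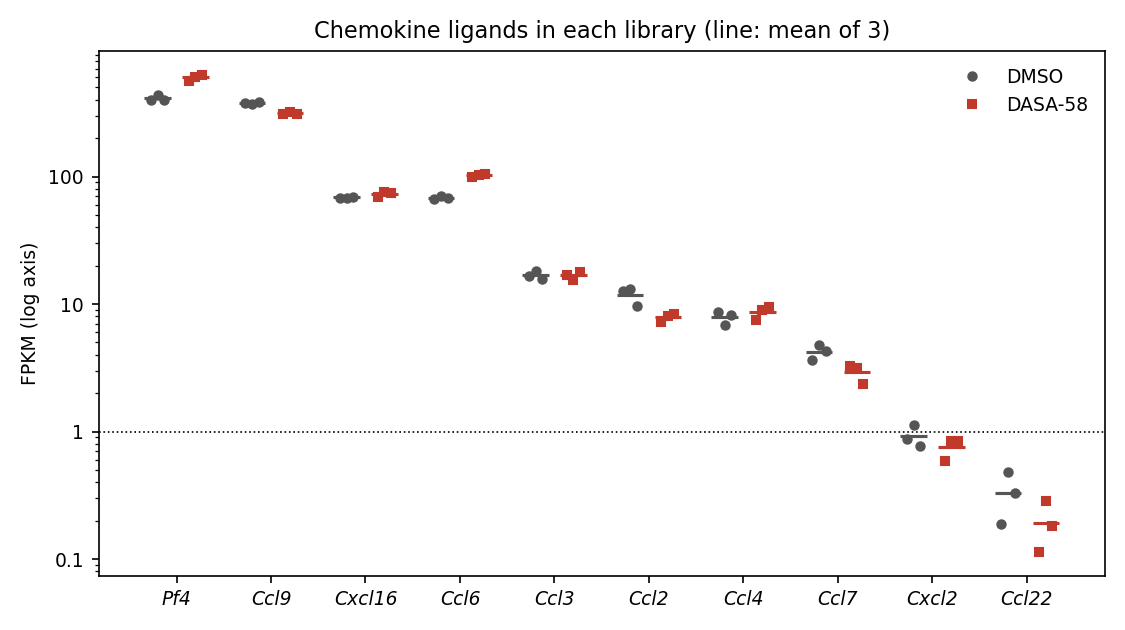
FPKM of the 10 ligands in each library on a log axis, with grey circles for DMSO, red squares for DASA-58, a short line at the mean of 3 libraries, and a dotted line at 1 FPKM. The groups are apart for Pf4, Ccl9, Ccl6, Cxcl16, Ccl2 and Ccl7, and they overlap for Ccl3, Ccl4, Cxcl2 and Ccl22.

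Pf4 was the most abundant of the ligands. Its FPKM was 401, 439 and 397 in the DMSO libraries and 561, 605 and 631 in the DASA-58 libraries. All 3 DASA-58 libraries lay above all 3 DMSO libraries. The mean rose from 412 ± 23.3 to 599 ± 35.2 FPKM (SD, n = 3 each), which is 145% of DMSO. The log2 fold change was 0.54 ± 0.053 (SE; limma, BH-adjusted p = 0.00098). Each library held between 5211 and 8627 fragments of Pf4. Platelets and megakaryocytes are the classical source of Pf4, and 8 of 10 of their marker genes were under 1 FPKM in every library. The other 2, Ppbp and Treml1, were higher with DASA-58 (Treml1 at 2.23 ± 0.435 and 3.21 ± 0.209 FPKM, SD, n = 3 each, limma, BH-adjusted p = 0.048), and the summed level of the list was 3.19 to 4.21 FPKM with DMSO and 4.88 to 6.03 FPKM with DASA-58. The call of Ppbp held under 7 of 15 other settings. That of Treml1, from 46 to 91 fragments per library, was not checked under other settings.

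Ccl6, a chemokine of mouse myeloid cells, showed the smallest p of the 10 ligands. Its FPKM was 66.2, 70.7 and 67.9 with DMSO and 98.6, 103 and 105 with DASA-58. The groups did not overlap, and the gap between them was wider than the spread within either. The mean rose from 68.3 ± 2.27 to 102 ± 3.19 FPKM (SD, n = 3 each), or 150% of DMSO. Its log2 fold change was 0.57 ± 0.036 (SE; limma, BH-adjusted p = 0.00012). Over the 6 libraries, the genes outside the family whose values lay closest to those of Ccl6, each taken relative to its DMSO mean, were Prdx1, Ms4a7 and Fcgr3, at Euclidean distances of 0.0637, 0.0708 and 0.105 on the log2 scale. Prdx1 encodes an antioxidant peroxiredoxin, Ms4a7 a membrane protein of macrophages and Fcgr3 an Fc receptor.

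Ccl9 fell, although less steeply. Its FPKM was 376, 373 and 385 with DMSO and 309, 322 and 311 with DASA-58. The highest DASA-58 value stayed well under the lowest DMSO value. The mean went from 378 ± 6.14 to 314 ± 7.16 FPKM (SD, n = 3 each), or 83.0% of DMSO. The log2 fold change was -0.27 ± 0.027 (SE; limma, BH-adjusted p = 0.0011). With 17702 to 21437 fragments per library, Ccl9 was the most deeply counted ligand. Of its 50-base stretches, 1.97% also match transcripts of other genes when read on either strand.

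The monocyte attractants Ccl2 and Ccl7 were both lower. Ccl2 was at 12.6, 13.1 and 9.70 FPKM with DMSO and at 7.19, 8.02 and 8.43 FPKM with DASA-58. The third DMSO library was closest to the DASA-58 libraries, but the groups did not overlap. The mean was 11.8 ± 1.83 FPKM (SD, n = 3) against 7.88 ± 0.634 FPKM (SD, n = 3), with a log2 fold change of -0.52 ± 0.10 (SE; limma, BH-adjusted p = 0.019). Ccl7 was at 3.67, 4.77 and 4.25 FPKM with DMSO and at 3.25, 3.16 and 2.37 FPKM with DASA-58. Its groups did not overlap either, but the lowest DMSO and the highest DASA-58 library were close to each other. The log2 fold change of Ccl7 was -0.42 ± 0.11 (SE; limma, BH-adjusted p = 0.048), from 36 to 72 fragments per library.

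The call of Ccl2 held under 10 of 16 other settings and that of Ccl7 under 2 of 15. Without variance shrinkage the BH-adjusted p (limma) was 0.131 for Ccl2 and 0.183 for Ccl7. For Ccl2 it was 0.0705 and 0.0534 without DMSO replicates 1 and 2, and 0.0662 and 0.051 without DASA-58 replicates 1 and 2 (limma, BH-adjusted). Leaving out any 1 library took Ccl7 past 0.05, with values from 0.0526 to 0.122. The calls of Ccl6, Pf4 and Ccl9 held under all 16 settings.

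The macrophage inflammatory chemokines Ccl3 and Ccl4 were not called. Ccl3 was at 16.5, 18.3 and 15.8 FPKM with DMSO and at 16.9, 15.4 and 18.0 FPKM with DASA-58, and the groups overlapped throughout. Its log2 fold change was -0.01, with a 95% interval from -0.17 to 0.15 (limma, BH-adjusted p = 0.96). The sign was positive with quantile normalization or centring on the median. Ccl4 was at 8.67, 6.83 and 8.15 FPKM with DMSO and at 7.56, 8.91 and 9.43 FPKM with DASA-58, again with overlap. The log2 fold change of Ccl4 was 0.12, with a 95% interval from -0.11 to 0.34 (limma, BH-adjusted p = 0.48).

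Cxcl16 was at 68.5, 68.2 and 69.1 FPKM with DMSO and at 69.4, 76.1 and 74.7 FPKM with DASA-58. The lowest DASA-58 library was just above the highest DMSO library, and Cxcl16 did not pass the test (log2 fold change 0.10, 95% interval 0.01 to 0.18, limma, BH-adjusted p = 0.15). The Cxcl16 gene overlaps Zmynd15 on the other strand, and 16.9% of the 50-base stretches of Cxcl16 match Zmynd15 transcripts when read on either strand. The use of strand in the counting is not given in the sources used here, and Zmynd15 reached at most 6.31 FPKM.

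The neutrophil attractant Cxcl2 and the Ccr4 ligand Ccl22 were the lowest of the family. Cxcl2 was at 0.870, 1.13 and 0.770 FPKM with DMSO and at 0.591, 0.851 and 0.841 FPKM with DASA-58, from 23 to 44 fragments per library. Ccl22 was at 0.188, 0.479 and 0.331 FPKM with DMSO and at 0.114, 0.284 and 0.181 FPKM with DASA-58, from 5 to 21 fragments. The limit set by a count of 0 (3 fragments) is at most 0.0709 FPKM for Ccl22, as far as counting error goes. In both genes the groups overlapped. Without the filter, the log2 fold change was -0.13 for Cxcl2 and -0.16 for Ccl22, and neither was called (limma, BH-adjusted p = 0.666 and 0.532). Of the 50-base stretches of Cxcl2, 5.84% also match its paralog Cxcl3 when read on either strand.

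The order of the ligands by level (FPKM, which is per length) began with Pf4 and Ccl9 in both groups. In the DMSO libraries Cxcl16 and Ccl6 came next and overlapped each other. In the DASA-58 libraries Ccl6 stood above Cxcl16 in all 3. Below them, Ccl2 was above Ccl4 in all DMSO libraries, whereas with DASA-58 the ranges of Ccl4 and Ccl2 overlapped. No other neighbours in either order overlapped. The summed FPKM of the 10 ligands was 954, 996 and 958 with DMSO and 1073, 1142 and 1160 with DASA-58 (p = 0.1 by a two-sided exact permutation test, which cannot go lower with 3 against 3). Pf4, Ccl9, Ccl6 and Cxcl16 together made up 95.5% to 96.8% of this sum in every library. The share of Pf4 went from 42.5 ± 1.39% to 53.2 ± 1.08% (SD, n = 3 each) and that of Ccl9 from 39.0 ± 1.39% to 27.9 ± 1.03% (SD, n = 3 each).

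A ratio of 2 genes within 1 library does not depend on the scaling between libraries, and 5 such ratios were compared. The FPKM ratio of Pf4 to Ccl9 was 1.07, 1.18 and 1.03 with DMSO and 1.82, 1.88 and 2.03 with DASA-58. The ratio of Ccl6 to Ccl9 was 0.176, 0.189 and 0.176 with DMSO and 0.319, 0.320 and 0.337 with DASA-58. Both were higher in all 3 DASA-58 libraries than in all 3 DMSO libraries, by 0.81 and 0.85 on the log2 scale (exact permutation test, two-sided, p = 0.1 each and 0.25 after BH adjustment over the 5, which cannot pass 0.05 in this design). Because Pf4 and Ccl6 were higher and Ccl9 was lower without overlap, both ratios had to separate. Their separation is therefore not a further result beside those of the single genes. The ratio of Pf4 to Ccl6 overlapped between the groups, with means of 6.04 ± 0.184 and 5.86 ± 0.165 (SD, n = 3 each). The ratio of Ccl2 to Ccl7, at 2.82 ± 0.576 and 2.77 ± 0.702, and that of Ccl3 to Ccl4, at 2.17 ± 0.443 and 1.96 ± 0.256 (SD, n = 3 each), overlapped as well.

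**Figure D2:**
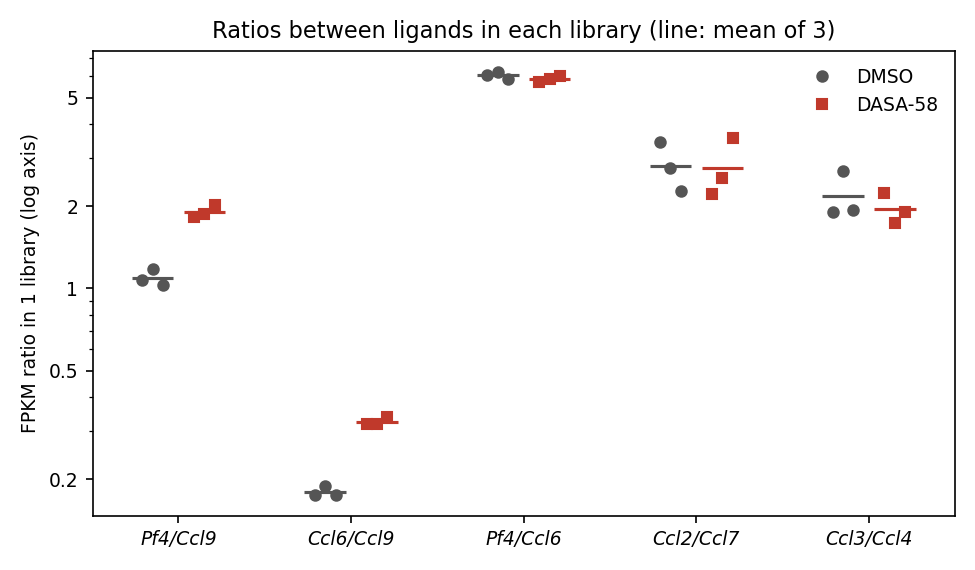
FPKM ratios of 5 pairs of ligands in each library on a log axis, with grey circles for DMSO, red squares for DASA-58 and a line at the mean of 3 libraries. The Pf4/Ccl9 and Ccl6/Ccl9 ratios are higher in every DASA-58 library, while the other 3 ratios overlap between the groups.

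Most of the ligand genes lie in clusters. In the GENCODE annotation (GRCm38), Ccl9 (ENSMUSG00000019122) is at chr11:83572919-83578636 and Ccl6 (ENSMUSG00000018927) at chr11:83587882-83593087, both on the minus strand, with their starts 14.5 kb apart. Ccl3 and Ccl4 start 70.7 and 83.9 kb from Ccl9 on the same side as Ccl6. The pair Ccl9 and Ccl6 moved apart, and Ccl3 and Ccl4 were not called. Of the other genes within this stretch, which were looked at after the values were seen, Ccl5 on the far side of Ccl9 was lower (log2 fold change -0.36, standard error 0.087, limma, BH-adjusted p = 0.036). From 47 to 78 fragments per library, the call of Ccl5 held under only 5 of 15 other settings. Beyond Ccl4, Wfdc17, a small secreted protein gene, was higher, from 31.2 ± 2.42 FPKM (DMSO) to 52.2 ± 2.60 FPKM (DASA-58; SD, n = 3 each; log2 fold change 0.72, limma, BH-adjusted p = 0.00047). Taf15, Wfdc21 and Heatr6 at the edges were not called.

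**Figure D3:**
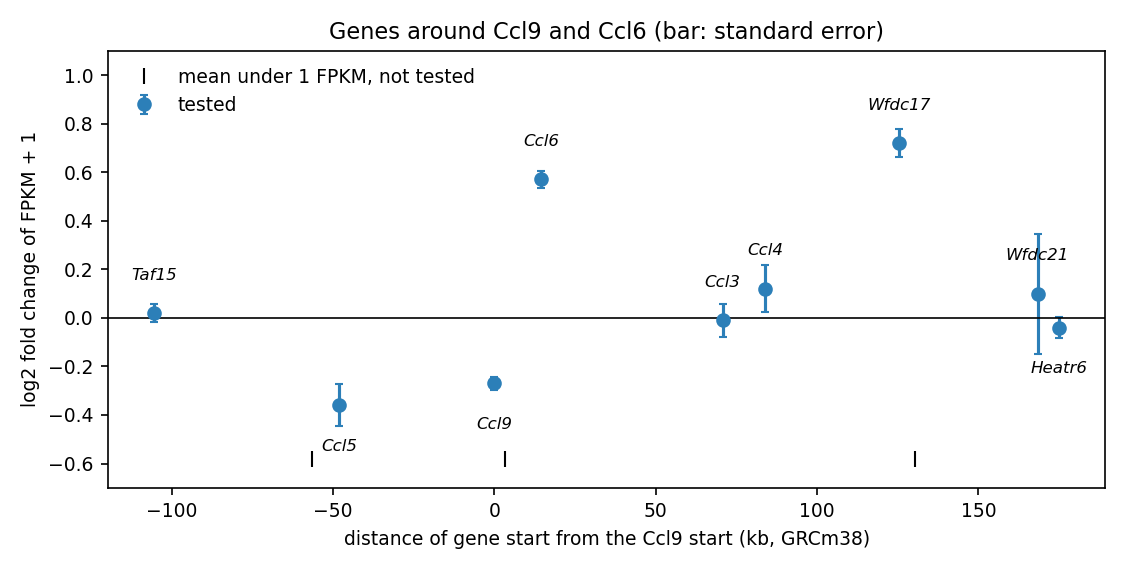
Log2 fold change of FPKM + 1 with its standard error for the tested genes around Ccl9, placed by the distance of their starts from that of Ccl9 in kb, with ticks for genes under 1 FPKM. Ccl9 and Ccl5 lie below 0 at -0.27 and -0.36, and Ccl6 and Wfdc17 lie above it at 0.57 and 0.72.

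Ccl2 (ENSMUSG00000035385, chr11:82035571-82037453) and Ccl7 (ENSMUSG00000035373, chr11:82045712-82047525) start 10.1 kb apart in a separate cluster on the same chromosome. Ccl12 and Ccl8 of that cluster had log2 fold changes of -0.12 and -0.26 and were not called (limma, BH-adjusted p = 0.48 and 0.31). Pf4 (ENSMUSG00000029373) is at chr5:90772435-90773383. Ppbp, the next gene, which encodes another platelet chemokine, starts 3.9 kb before it. It was also higher, from 1.05 ± 0.0987 FPKM (DMSO) to 1.77 ± 0.300 FPKM (DASA-58; SD, n = 3 each; log2 fold change 0.43, limma, BH-adjusted p = 0.03), a call that held under 7 of 15 other settings. Cxcl2 lies 131.4 kb from Pf4.

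Of 28 further chemokine ligands listed, 23 were in the table and 6 passed the filter, of which 2 were lower and 1 higher, against 7.28% and 4.24% of all genes tested. Cxcl10, an interferon-induced ligand of Cxcr3, was lower in every DASA-58 library, with a mean of 10.3 ± 1.07 FPKM against 5.90 ± 0.301 FPKM (SD, n = 3 each; log2 fold change -0.71, limma, BH-adjusted p = 0.0012). Cxcl10 held under all 16 other settings, whereas Ccl5 held under 5 of 15 and Ppbp under 7 of 15. Without variance shrinkage the adjusted p (linear model in limma) was 0.142 for Ccl5 and 0.106 for Ppbp. Both calls were lost without any 1 library other than DASA-58 replicate 3, with an adjusted p (limma) of 0.0555 to 0.105 for Ccl5 and 0.06 to 0.0892 for Ppbp.

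The receptors were mostly lower where they changed. Of 24 listed, 22 were in the table and 8 passed the filter, of which 4 were lower and 1 higher, beside 7.28% and 4.24% of all genes tested. Ccr1, the receptor of Ccl9 and Ccl6, was at 12.2, 12.2 and 11.6 FPKM with DMSO and at 7.99, 6.77 and 6.79 FPKM with DASA-58. Its groups were far apart, with a log2 fold change of -0.67 ± 0.062 (SE; limma, BH-adjusted p = 0.00077). Cx3cr1, the receptor of Cx3cl1, and Cxcr4, the receptor of Cxcl12, were lower as well (log2 fold changes -0.40 and -0.16, limma, BH-adjusted p = 0.0098 and 0.012). Cxcr3, the receptor of Cxcl10, was higher, from 2.56 ± 0.217 FPKM (DMSO) to 4.07 ± 0.163 FPKM (DASA-58; SD, n = 3 each). Its log2 fold change was 0.51 (limma, BH-adjusted p = 0.0027). Ccr2, the receptor of Ccl2 and Ccl7, was not called (log2 fold change -0.02, limma, BH-adjusted p = 0.88), nor was Ccr3 (log2 fold change -0.14, limma, BH-adjusted p = 0.37). The receptors of Cxcl2, Cxcl16 and Ccl22 were under the filter, with at most 14 fragments of Cxcr2, 19 of Cxcr6 and 3 of Ccr4 in any library.

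**Figure D4:**
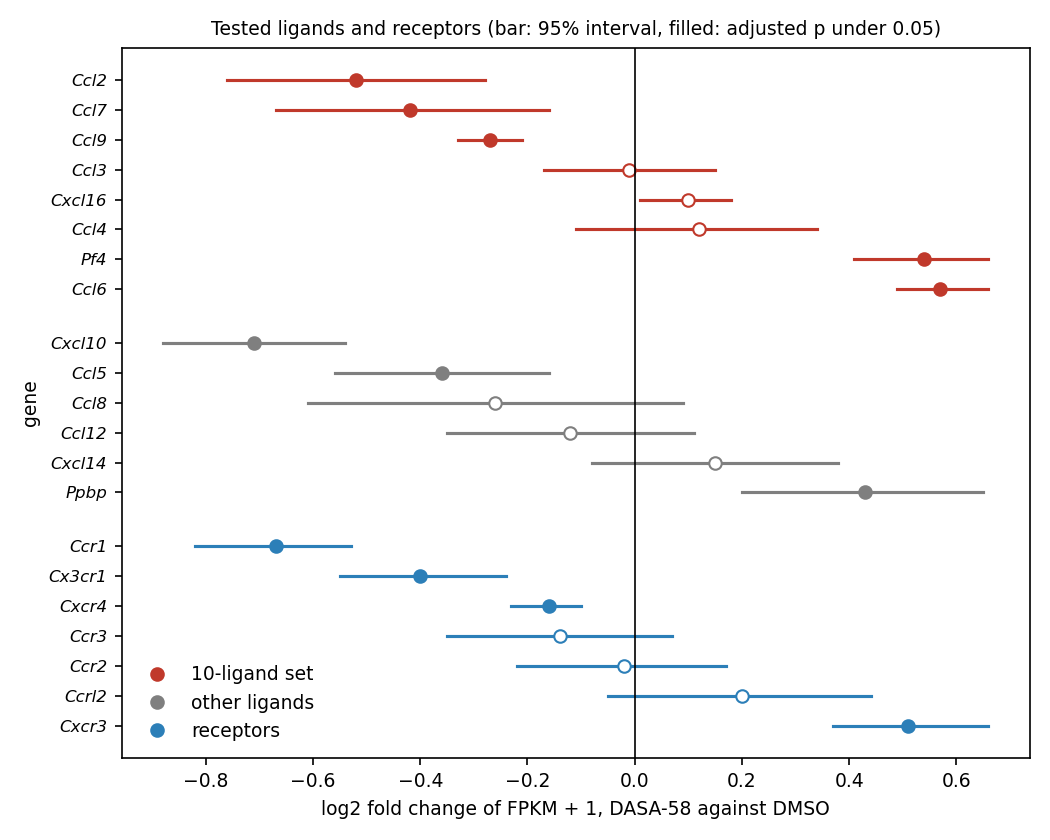
Log2 fold change of FPKM + 1 with its 95% interval for the tested members of the 10 ligands (red), other chemokine ligands (grey) and chemokine receptors (blue, 7 of the 8 tested), filled where the adjusted p was under 0.05. Ccl6 and Pf4 are at 0.57 and 0.54 while Ccr1 is at -0.67 and Cxcl10 at -0.71.

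Among 17 genes of chemokine processing and release, 15 were tested, with 3 lower and 4 higher, beside shares of 7.28% and 4.24% over all genes tested. The proteases Ctsk and Mmp9, which osteoclasts secrete, fell by 0.93 and 0.74 on the log2 scale, and Mmp14 by 0.18, a call that held under 5 of 15 other settings and was lost without any 1 library other than DMSO replicate 3 (limma, BH-adjusted p = 0.0551 to 0.107). Ctsk and Mmp9 are also on the osteoclast list, and Mmp8 is on the neutrophil list. Mmp12 and Mmp8, both metalloproteases, and Ctsb and Ctss, both lysosomal cathepsins, were higher by 0.44, 0.51, 0.29 and 0.15. The call of Mmp8 held under 14 of 16 other settings and that of Ctss under 11 of 16. For Ctss the BH-adjusted p (limma) was 0.205 without the filter and 0.0736 without variance shrinkage, and it was 0.0523, 0.0501 and 0.0654 without DMSO replicate 1, DASA-58 replicate 2 and DASA-58 replicate 3. Adam10 and Adam17, the proteases that shed Cxcl16, and Srgn, the granule proteoglycan that binds Pf4, were not called, with log2 fold changes of 0.07, -0.01 and -0.04.

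Of 35 genes of signaling and transcription upstream of chemokines, 34 were tested, with 10 lower and 1 higher, where 7.28% and 4.24% of all genes tested were called in these directions. The median log2 fold change of the 34 was -0.07. Among the lower genes, Junb and Fosl2 encode subunits of AP-1, Nfkbia encodes an inhibitor of NF-κB, and Nfatc1, which is also on the osteoclast list, encodes the main transcription factor of osteoclasts. In this order, their log2 fold changes were -0.43, -0.56, -0.29 and -0.45, none with a BH-adjusted p above 0.0012 (limma). Cebpa, a myeloid transcription factor, was the gene that was higher, from 33.2 ± 1.79 FPKM (DMSO) to 44.5 ± 0.860 FPKM (DASA-58; SD, n = 3 each), a log2 fold change of 0.42.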

How the data were processed

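RNA of BMMs was sequenced in 6 libraries, 3 per group. The authors deposited 1 table of FPKM for 23504 genes, normalized to gene length and to the fragments counted in each library. The submitters' processing notes name HISAT2 2.1.0, HTSeq 0.6.0 and the build mm8. The annotation and the use of strand are not given in the sources used here. All 6 columns were mapped by their labels. With exon lengths of GENCODE mouse release M21 (GRCm38), the FPKM were whole fragments (within 0.05) in all libraries for 91.2% of genes. These give the depth and the counts printed, and intervals and limits from them cover counting error only. Symbols matched 23455 identifiers. limma 3.58.1 (R 4.3.3) compared the groups on log2(FPKM + 1) with a variance trend, Benjamini-Hochberg adjustment and no replicate block, after removal of genes whose mean was under 1 FPKM. Single genes and ratios were tested by exact permutation in SciPy 1.17.1. The two-sided exact permutation p of Ccl6, Pf4, Ccl9, Ccl2, Ccl7 and Cxcl16 was 0.1 each, the lowest possible with 3 against 3. It was larger for the other ligands. The fit was tested on simulated fragments, drawn with the same relative spread beyond counting error for every gene. This cannot show how well calls hold for genes with a wider spread between libraries.

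The 10 ligands and all lists were chosen with earlier results of these data known. Named were all 10 ligands, their receptors (1 of which is counted but not reported here), up to 4 called genes per other list and direction with the smallest p, and the 3 genes nearest in pattern to the ligand with the smallest p. The genes next to the ligands and Treml1 were named after their values were seen. Alternatives were pseudocounts of 0.1 and 5, no filter, a filter at 5 FPKM, equal library totals, quantile normalization, centring on the median, a block for the replicate number, unshrunken variances, voom on recovered fragments, and each library left out in turn.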

Additional observations from a re-analysis of the deposited data

How the results depend on the processing

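Ccl6, Pf4 and Ccl9 kept their direction and their call under all 16 alternatives, with log2 fold changes of 0.55 to 0.60, 0.50 to 0.58 and -0.29 to -0.24. The number of chemokine ligands lower, 3 as reported, was 1 without a filter on low values and 1 without variance shrinkage, and 1 to 2 with 1 library left out. The ligands higher numbered 2 throughout. Ccl7 ranged from -0.54 to -0.22 and Ccl2 from -0.64 to -0.38. The sign of Ccl3 was positive with quantile normalization (0.017) or median centring (0.02), and Ccl3 ranged from -0.057 to 0.052 with 1 library left out, being positive without DMSO replicate 2 (0.052) or DASA-58 replicate 2 (0.049). The other chemokine ligands called, 3 as reported, were 1 without a filter, 1 at a mean of at least 5 FPKM, 1 without variance shrinkage and 1 with voom, and 1 to 3 with 1 library left out. The chemokine receptors called, 5 as reported, were 4 without a filter and 4 at a mean of at least 5 FPKM. They were 3 without variance shrinkage and 5 with any 1 library left out. Without shrinkage Cx3cr1 had an adjusted p of 0.0798 (linear model in limma), and without a filter it had one of 0.0513 (limma).

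Over all genes tested, 798 were lower and 465 higher. Without a filter they numbered 372 and 257, without variance shrinkage 314 and 227, and 387 to 603 and 272 to 375 with 1 library left out. Centring on the median gave 504 lower genes, and it lowered the share of lower genes among the calls from 63.2% to 45.8%. Quantile normalization gave 49.5% and equal library totals 71.3%. The cause of these shifts was not tested.

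The sources used here do not say whether libraries with the same replicate number share a source of cells. The deviations of same-numbered libraries from their group means correlated at -0.015, 0.016 and -0.016. Those of differently numbered libraries correlated at -0.046 to 0.061. No shared effect of the replicate number was therefore seen, but with 3 libraries per group this cannot show that the samples were unpaired. With the replicate number as a block, 3 other ligands and 5 receptors were called, the chemokine ligands numbered 2 lower and 2 higher, and Ccl7 had an adjusted p of 0.0628 (limma). Cxcl2 and Ccl22 held at most 44 and 21 fragments per library, and the part of depth in their missing calls was not tested.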
